A study of Homo sapiens with 6 samples.

Results

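The genes described are 47 components and targets of the Wnt signalling pathway, chosen by gene name and each found on a single row of the 60725 rows of the tables. They comprise ligands, the proteins that secrete them, receptors, the destruction complex, beta-catenin, TCF/LEF transcription factors, inhibitors and target genes. The RNA came from xenografts of MHCC97L, a human liver cancer cell line derived from hepatocellular carcinoma, and was sequenced as 2 groups of 3 libraries. The rhLUM group was treated with recombinant human lumican, a secreted matrix proteoglycan that binds collagen, and the Ctrl group did not receive it. For the dose, route, duration, host and number of tumours behind the libraries, the answer is not given in the sources used here. Since nothing says that replicates were separate tumours, p-values measure only the spread between these libraries, which may be technical.

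Wnt ligands are secreted glycoproteins that carry a lipid added by PORCN and leave the cell with the help of WLS. At the surface they bind Frizzled receptors and the co-receptors LRP5 and LRP6, which recruit Dishevelled proteins. Without a ligand, a destruction complex of APC, axin, casein kinase 1 and GSK3 phosphorylates beta-catenin and marks it for degradation. With a ligand, beta-catenin accumulates and acts with TCF/LEF factors on target genes, several of which encode inhibitors of the pathway. In the liver the pathway sets the gene expression of hepatocytes around the central vein, and CTNNB1 and AXIN1 are among the genes often mutated in hepatocellular carcinoma.

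Values are TPM, the abundance of a transcript as a share of its library after division by its length, as deposited, so levels can be compared between genes. TPM keeps no depth, and the depth of the libraries is unknown. Averaged over all 6 libraries, 33 of the 47 members reached 1 TPM and were tested among 14781 genes. Of these, FZD3, FZD4 and SP5 had a mean under 1 TPM in 1 group. Changes are differences of log2(TPM + 1), rhLUM minus Ctrl, from limma, with p-values adjusted over all genes tested and called at an adjusted p under 0.05. This scale understates the change of low genes.

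Libraries of the same group correlated at 0.978 to 0.983 across genes, and libraries of different groups at 0.928 to 0.935. Of all genes tested, 66.8% were called, 44.5% higher and 22.3% lower with rhLUM, so a call alone does not set a member apart. The median change of all genes tested was 0.16 (log2). Mitochondrial transcripts took 14.3 to 14.5% of TPM in rhLUM and 20.5 to 20.7% in Ctrl, and their part in the changes was examined by rescaling without them. Median-of-ratios scaling moved the all-gene median by -0.15, upper quartile scaling by -0.21 and rescaling without mitochondrial genes by -0.11. Higher genes made up 66.6% of all calls as deposited, 52.6% after median-of-ratios scaling and 46.3% after upper quartile scaling. Changes of members smaller than these shifts depend on the scaling.

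Hepatic markers were present: ALB averaged 825 ± 15.4 TPM in rhLUM and 289 ± 3.08 TPM in Ctrl (SD, n = 3 each). GPC3, often high in liver cancer, stayed at or under 0.29 TPM in every library. The 10 fibroblast markers summed to 10.6 to 14.9 TPM in rhLUM and 15.2 to 15.9 TPM in Ctrl. Of these, DCN fell, at 1.26 ± 0.32 TPM in rhLUM and 7.96 ± 0.35 TPM in Ctrl, and COL1A1 rose (a call made in 7 of the 16 settings), at 5.11 ± 0.92 TPM in rhLUM and 3.30 ± 0.73 TPM in Ctrl (SD, n = 3 each). COL1A2 averaged 2.59 ± 0.97 TPM in rhLUM and 1.65 ± 0.17 TPM in Ctrl and did not pass. The 7 endothelial markers summed to 26.9 to 31.8 TPM in rhLUM and 21.6 to 23.0 TPM in Ctrl. Of the endothelial markers, PECAM1 was higher and CDH5 lower with rhLUM, while CLEC14A was listed at 0 and VWF at or under 0.26 TPM. CDH5 passed the filter only through Ctrl, where it averaged 3.10 TPM, beside 0.45 TPM in rhLUM. The 9 leukocyte markers summed to 302 to 306 TPM in rhLUM and 222 to 224 TPM in Ctrl, mostly from LYZ and CD68, which both rose. ITGAM fell, at 3.84 ± 1.0 TPM in rhLUM and 8.01 ± 0.69 TPM in Ctrl (SD, n = 3 each), and the pan-leukocyte PTPRC was at or under 0.23 TPM. The part of other cell types in the changes below was not tested. In such bulk samples, fewer cells of a type and less RNA per cell cannot be told apart. The reads of these xenografts were aligned to the human genome, and whether host reads were removed is not given. Marker values from the human tumour cells and from host reads therefore cannot be told apart, and the sums do not count cells of a type.

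With rhLUM, 23 of the 33 tested Wnt members were higher (69.7%, beside 44.5% of all genes) and 4 were lower (12.1%, beside 22.3%). The members that fell were the ligand WNT3, the Dishevelled genes DVL1 and DVL3 and the target SP5. PORCN, FZD1, LRP5, GSK3A, TCF7L1 and TCF7L2 did not pass the threshold. The median change was 0.57, beside 0.16 for all genes tested. The 3 libraries of one group lay wholly apart from those of the other for 29 members (87.9%, beside 71.4% of all genes), rhLUM above for 24 (beside 47%) and below for 5 (beside 24.3%). A rise of at least 0.5 was called for 17 members (51.5%, beside 25.9% of all genes). Median-of-ratios scaling left 19 members higher and 5 lower, beside 5077 higher and 4569 lower of 14802 genes. The members' median was then 0.43, beside 0.0095 for all genes. The median transcript length was 4888 bases for the tested members, beside 3445 bases for all tested genes with a known length. Correcting each library for the length and GC content of transcripts left 22 members higher and 4 lower, beside 6344 higher and 2678 lower of 12832 genes. The members' median was then 0.42, beside 0.20 for all genes.

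**Figure D1:**
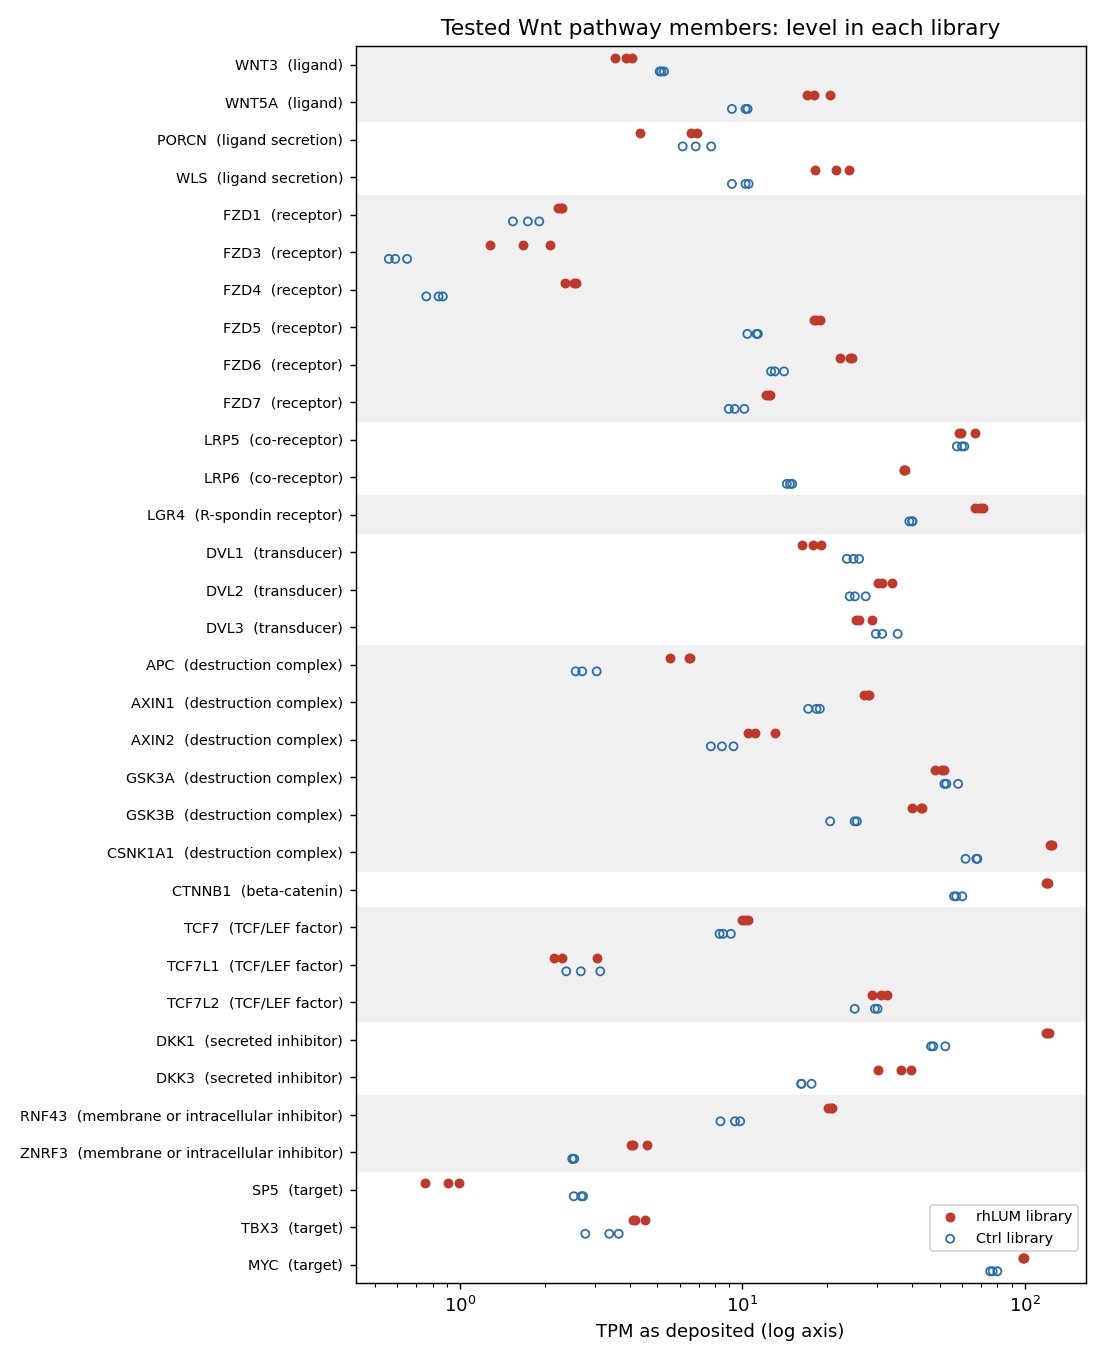
TPM as deposited on a log axis for the 33 tested members, ordered by role, with the 3 rhLUM libraries as filled circles above the 3 Ctrl libraries as open circles. Levels run from SP5 and FZD3, near 1 TPM, to CTNNB1, DKK1 and CSNK1A1, above 100 TPM in rhLUM, and the groups do not overlap for 29 members.

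Among the ligands, WNT5A was the most abundant and rose, while WNT3 fell. WNT5A, best known for signalling that does not pass through beta-catenin, had 17.9, 16.9 and 20.5 TPM in rhLUM, against 10.4, 10.3 and 9.19 TPM in Ctrl. Every rhLUM library lay above every Ctrl library, with a change of 0.82 (SE 0.08, limma adjusted p = 1.06e-04). WNT3, a ligand of the beta-catenin branch, averaged 3.83 ± 0.27 TPM in rhLUM and 5.18 ± 0.09 TPM in Ctrl (SD, n = 3 each), a change of -0.36 (limma adjusted p = 0.00584). Among the 4 listed ligands WNT5A made up 80.4 ± 1.3% of the summed TPM in rhLUM and 64.1 ± 2.1% in Ctrl, and WNT3 16.8 ± 1.3% in rhLUM and 33.4 ± 1.1% in Ctrl. WNT7B was at 0.37 to 0.56 TPM in rhLUM and 0.22 to 0.46 TPM in Ctrl. WNT11 was at 0.18 to 0.20 TPM in rhLUM and 0.06 to 0.08 TPM in Ctrl, and was the 1 low member that was called, as higher, when no filter on low values was applied (limma adjusted p = 0.0213).

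Of the secretion genes, WLS, the carrier of Wnt ligands to the cell surface, rose. It had 23.96, 21.6 and 18.1 TPM in rhLUM, against 9.19, 10.53 and 10.3 TPM in Ctrl. The lowest rhLUM library, C, was still well above the highest Ctrl library, and the change was 1.01 (SE 0.10, limma adjusted p = 1.15e-04). PORCN, the acyltransferase, was at 4.36 to 6.94 TPM in rhLUM and 6.15 to 7.76 TPM in Ctrl, and the groups overlapped (limma adjusted p = 0.304).

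The Frizzled receptors, which bind the ligands, were mainly FZD6, FZD5 and FZD7 in both groups. Of 6 tested, 5 rose (83.3%, beside 44.5% of all genes) and none fell (beside 22.3%), with a median change of 0.71 beside 0.16. After median-of-ratios scaling 5 rose too, while after upper quartile scaling 4 did (FZD7 was lost, limma adjusted p = 0.106). FZD3 and FZD4 passed the filter only through rhLUM, where they are high. Under a filter of 1 TPM in every library, 4 receptors were tested and 4 were higher, beside 6400 of 12945 genes. The receptors' median was then 0.52, beside 0.19 for all genes. FZD6 had 24.4, 24.02 and 22.2 TPM in rhLUM, against 13.1, 12.7 and 14.1 TPM in Ctrl, a change of 0.78 (SE 0.06, limma adjusted p = 2.55e-05). FZD5 had 17.97, 18.2 and 18.8 TPM in rhLUM, against 10.4, 11.4 and 11.2 TPM in Ctrl, a change of 0.69 (SE 0.05, limma adjusted p = 2.67e-05). The groups of both receptors were clearly apart. FZD7 averaged 12.4 ± 0.20 TPM in rhLUM and 9.51 ± 0.61 TPM in Ctrl, a smaller change of 0.35.

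The low receptors FZD4 and FZD3 showed the larger ratios. FZD4 had 2.35, 2.53 and 2.58 TPM in rhLUM, against 0.76, 0.87 and 0.84 TPM in Ctrl, a ratio of means of 3.02 and a change of 0.94 (SE 0.12, limma adjusted p = 4.13e-04). Its exons overlap those of PRSS23 on the other strand, which averaged 38.7 TPM in rhLUM and 15.9 TPM in Ctrl. Whether counting used strand is not given in the sources used here. Without strand, reads of the pair cannot be told apart. FZD3 had 1.28, 1.67 and 2.08 TPM in rhLUM, against 0.56, 0.65 and 0.59 TPM in Ctrl, a change of 0.73 (SE 0.17, limma adjusted p = 0.00683). FZD1 was at 2.22 to 2.30 TPM in rhLUM and 1.54 to 1.91 TPM in Ctrl, apart but not past the threshold (limma adjusted p = 0.082), though it was called with at least 1 TPM in all libraries (0.0427) or without the variance trend (0.0102). FZD2 reached 0.39 TPM and FZD8 and FZD9 no more than 0.11 TPM in any library, and FZD10 was listed at 0 throughout.

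Summed over the 10 receptors, Frizzled transcripts came to 60.9 ± 0.48 TPM in rhLUM and 37.3 ± 1.7 TPM in Ctrl (SD, n = 3 each). Shares within the family do not depend on scaling. FZD6 held 38.6 ± 1.7% in rhLUM and 35.6 ± 0.75% in Ctrl, and FZD7 20.3 ± 0.24% in rhLUM and 25.5 ± 0.80% in Ctrl. FZD4 held 4.08 ± 0.21% in rhLUM and 2.21 ± 0.15% in Ctrl, while the share of FZD5 overlapped between groups, at 30.1 ± 0.90% in rhLUM and 29.6 ± 1.4% in Ctrl. For such sums and shares 34 values were compared. Where the groups were apart the two-sided exact permutation test gave p = 0.1, the smallest that 3 against 3 libraries allow, and 0.148 after Benjamini-Hochberg adjustment.

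The co-receptors differed. LRP6 (chr12:12116025-12267012, minus strand, GRCh38, a protein-coding gene as the others located here by GENCODE 29) had 37.5, 37.6 and 37.3 TPM in rhLUM, against 14.8, 14.4 and 15.0 TPM in Ctrl. Its change of 1.29 (SE 0.04, limma adjusted p = 4.05e-07) equalled that of DKK1 to 2 decimals as the largest rise of a member as deposited, and lay above that of 97.4% of tested genes. LRP5 had 66.9, 58.7 and 59.6 TPM in rhLUM, against 61.2, 57.5 and 60.0 TPM in Ctrl, and the groups overlapped (0.05, SE 0.06, limma adjusted p = 0.466). Its change turned to -0.12 after median-of-ratios scaling and to -0.19 after upper quartile scaling, the second of which passed as lower (limma adjusted p = 0.0244), while it passed as higher after the length and GC correction (0.15, limma adjusted p = 0.0279). The share of LRP6 in the pair was 37.8 ± 1.7% in rhLUM and 19.8 ± 0.33% in Ctrl, with LRP5 the more abundant in every library.

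**Figure D2:**
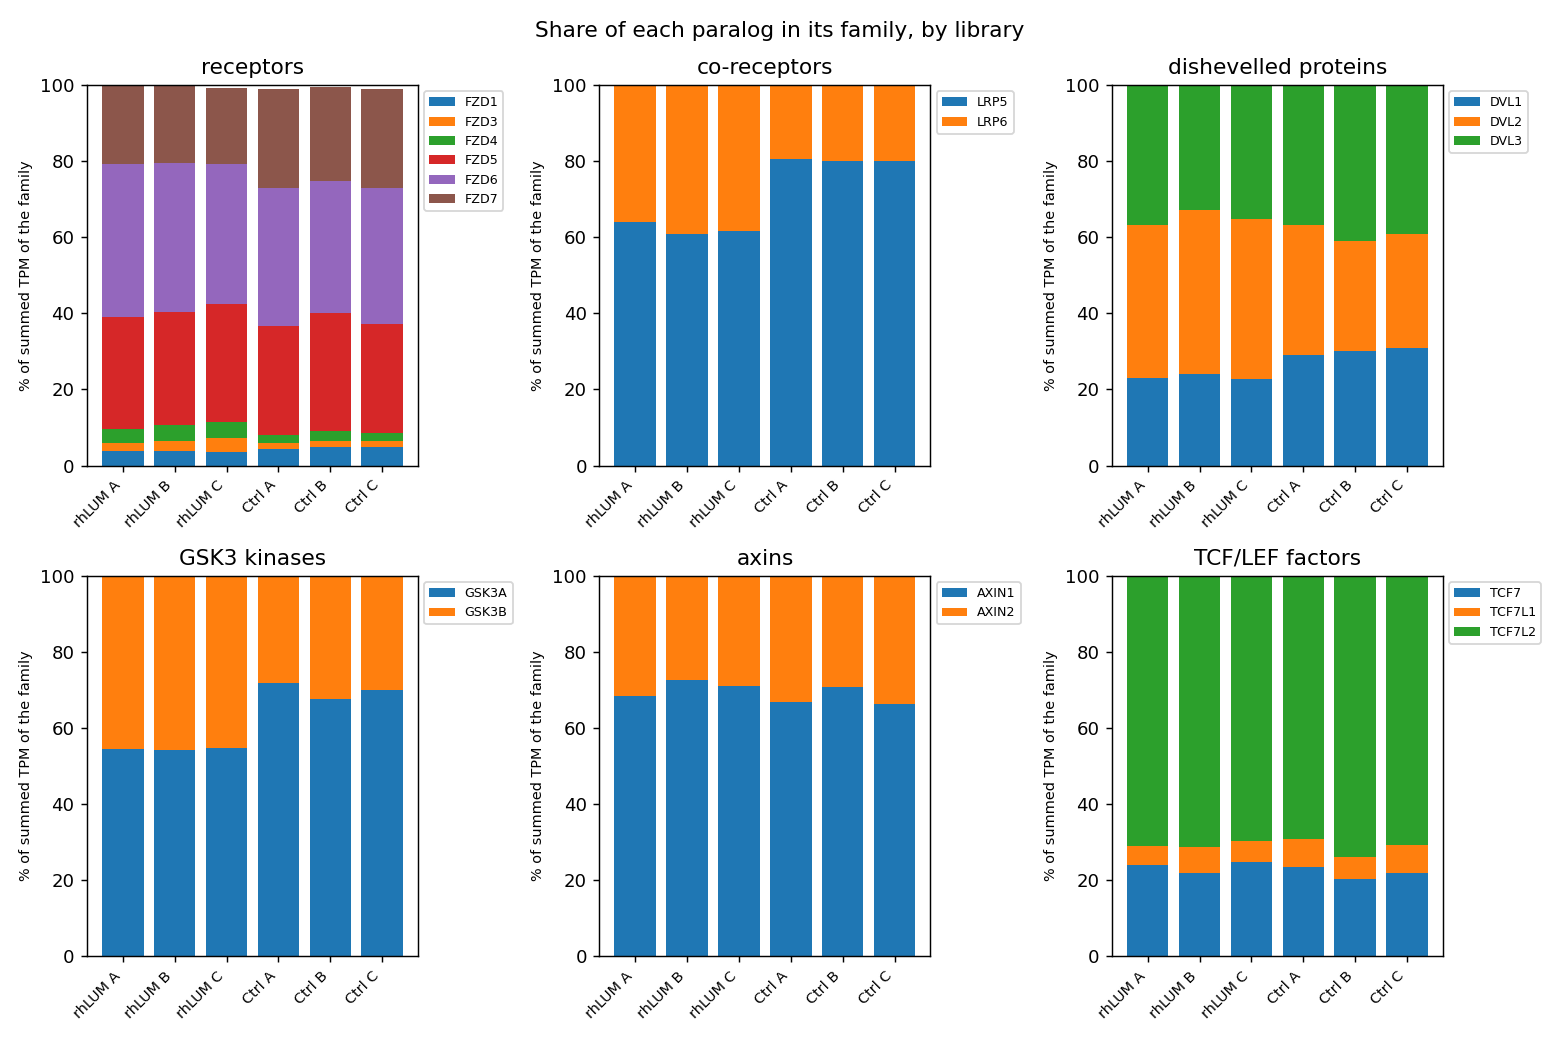
Percent of the summed TPM of each family held by each paralog, in the 3 rhLUM libraries (left) and the 3 Ctrl libraries (right). LRP6 and GSK3B hold a larger share of their pair in every rhLUM library, and DVL2 of its family, while the axin and TCF/LEF shares drawn overlap. Paralogs under 1% in every library are not drawn, so a bar can end below 100%.

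LGR4, a receptor for R-spondins, which potentiate Wnt signals, rose. It had 71.3, 66.5 and 69.5 TPM in rhLUM, against 40.0, 40.1 and 39.1 TPM in Ctrl, a change of 0.78 (SE 0.04, limma adjusted p = 2.62e-06). LGR5, its relative and a stem cell marker of the intestine and a Wnt target in liver, had 0.02, 0.02 and 0.06 TPM in rhLUM, against 0.01, 0.00 and 0.04 TPM in Ctrl. Expression of LGR5 was thus near 0 in both groups, and it was not tested.

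The Dishevelled genes, which relay the signal from the receptors, moved apart. DVL2 averaged 31.8 ± 1.9 TPM in rhLUM and 25.5 ± 1.7 TPM in Ctrl, DVL1 17.7 ± 1.3 TPM in rhLUM and 24.7 ± 1.2 TPM in Ctrl, and DVL3 26.6 ± 1.8 TPM in rhLUM and 32.2 ± 3.0 TPM in Ctrl (SD, n = 3 each). DVL1 fell by 0.46 (limma adjusted p = 6.88e-04) and DVL3 fell by 0.26 (limma adjusted p = 0.0205), while DVL2 rose by 0.31 (limma adjusted p = 0.00432). The call of DVL2 was lost after median-of-ratios (limma adjusted p = 0.0981) and upper quartile scaling (0.353). That of DVL1 was lost after the length and GC correction (-0.19, limma adjusted p = 0.0544). The call of DVL3 was lost without Ctrl B, rhLUM B or rhLUM C (limma adjusted p = 0.0519, 0.0609 and 0.0662). Within the family, DVL2 held 41.7 ± 1.4% in rhLUM and 30.98 ± 2.6% in Ctrl, and the groups did not overlap. The summed TPM of the 3 genes was 76.1 ± 3.9 in rhLUM and 82.4 ± 3.6 in Ctrl.

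In the destruction complex 5 of 6 genes rose (83.3%, beside 44.5% of all genes) and none fell (beside 22.3%), with a median change of 0.70 beside 0.16. Median-of-ratios scaling gave 4 higher genes and 1 lower gene, GSK3A. CSNK1A1, the casein kinase that phosphorylates beta-catenin before GSK3 does, had 123, 125 and 124 TPM in rhLUM, against 61.8, 67.4 and 68.1 TPM in Ctrl. Its change was 0.91 (SE 0.04, limma adjusted p = 2.25e-06). APC, the scaffold that gives the complex its link to colorectal cancer, had 6.45, 6.51 and 5.55 TPM in rhLUM, against 2.71, 3.05 and 2.57 TPM in Ctrl, a change of 0.92 (SE 0.10, limma adjusted p = 1.26e-04). Both genes were apart between groups, and CSNK1A1 was far more abundant than APC in every library.

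The GSK3 kinases were unequal. GSK3B had 43.3, 43.0 and 40.0 TPM in rhLUM, against 20.5, 25.5 and 25 TPM in Ctrl, a change of 0.81 (SE 0.09, limma adjusted p = 1.23e-04). GSK3A averaged 50.2 ± 1.8 TPM in rhLUM and 54.3 ± 3.3 TPM in Ctrl (SD, n = 3 each), a change of -0.11 that did not pass (limma adjusted p = 0.104). It passed as lower after median-of-ratios scaling (-0.28, limma adjusted p = 0.00297), upper quartile scaling (-0.35, 9.24e-04), rescaling without mitochondrial genes (-0.22, 0.00873) and the length and GC correction (-0.15, 0.0266). GSK3B held 45.6 ± 0.21% of the pair in rhLUM and 30.3 ± 2.1% in Ctrl.

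AXIN1, the constitutive axin, had 28.1, 27.8 and 27.1 TPM in rhLUM, against 17.1, 18.8 and 18.3 TPM in Ctrl, a change of 0.59 (SE 0.05, limma adjusted p = 3.89e-05). AXIN2, the axin that beta-catenin induces and a common readout of the pathway, had 13.0, 10.51 and 11.1 TPM in rhLUM, against 8.47, 7.74 and 9.31 TPM in Ctrl. Its groups were apart, with a change of 0.40 (SE 0.10, limma adjusted p = 0.00884). That call was lost after median-of-ratios (0.24, limma adjusted p = 0.0613) and upper quartile scaling (0.18, limma adjusted p = 0.146). The share of AXIN2 in the axin sum overlapped, at 29.4 ± 2.2% in rhLUM and 31.98 ± 2.5% in Ctrl.

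CTNNB1, which encodes beta-catenin, the transducer of the pathway and a partner of cadherins in cell junctions, rose. The gene lies on chr3:41194741-41260096, plus strand. It had 120, 121 and 119 TPM in rhLUM, against 60.2, 57.3 and 56.2 TPM in Ctrl. The groups were far apart, with a change of 1.04 (SE 0.03, limma adjusted p = 4.94e-07), above that of 94.3% of tested genes. These are RNA levels, and beta-catenin is regulated mainly by the stability of its protein, which was not measured here.

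The TCF/LEF factors, which bring beta-catenin to DNA, were dominated by TCF7L2. It averaged 30.8 ± 1.8 TPM in rhLUM and 28.2 ± 2.8 TPM in Ctrl (SD, n = 3 each) and did not pass (0.12, limma adjusted p = 0.206), and its sign turned after median-of-ratios (-0.04) and upper quartile scaling (-0.11) and the length and GC correction (-0.03). TCF7 averaged 10.2 ± 0.25 TPM in rhLUM and 8.66 ± 0.41 TPM in Ctrl, a change of 0.22 (limma adjusted p = 0.0147). Its call was lost in each scaling alternative, on the length and GC correction and without Ctrl B (limma adjusted p = 0.0503 to 0.999). Its exons also overlap those of SKP1 on the other strand, at 372 TPM in rhLUM and 219 TPM in Ctrl. TCF7L1, mostly a repressor, averaged 2.51 ± 0.49 TPM in rhLUM and 2.73 ± 0.38 TPM in Ctrl (limma adjusted p = 0.584). LEF1 was at or under 0.06 TPM in rhLUM and 0.07 to 0.15 TPM in Ctrl. TCF7L2 made up 70.7 ± 0.97% of the family in rhLUM and 71.0 ± 2.4% in Ctrl.

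**Figure D3:**
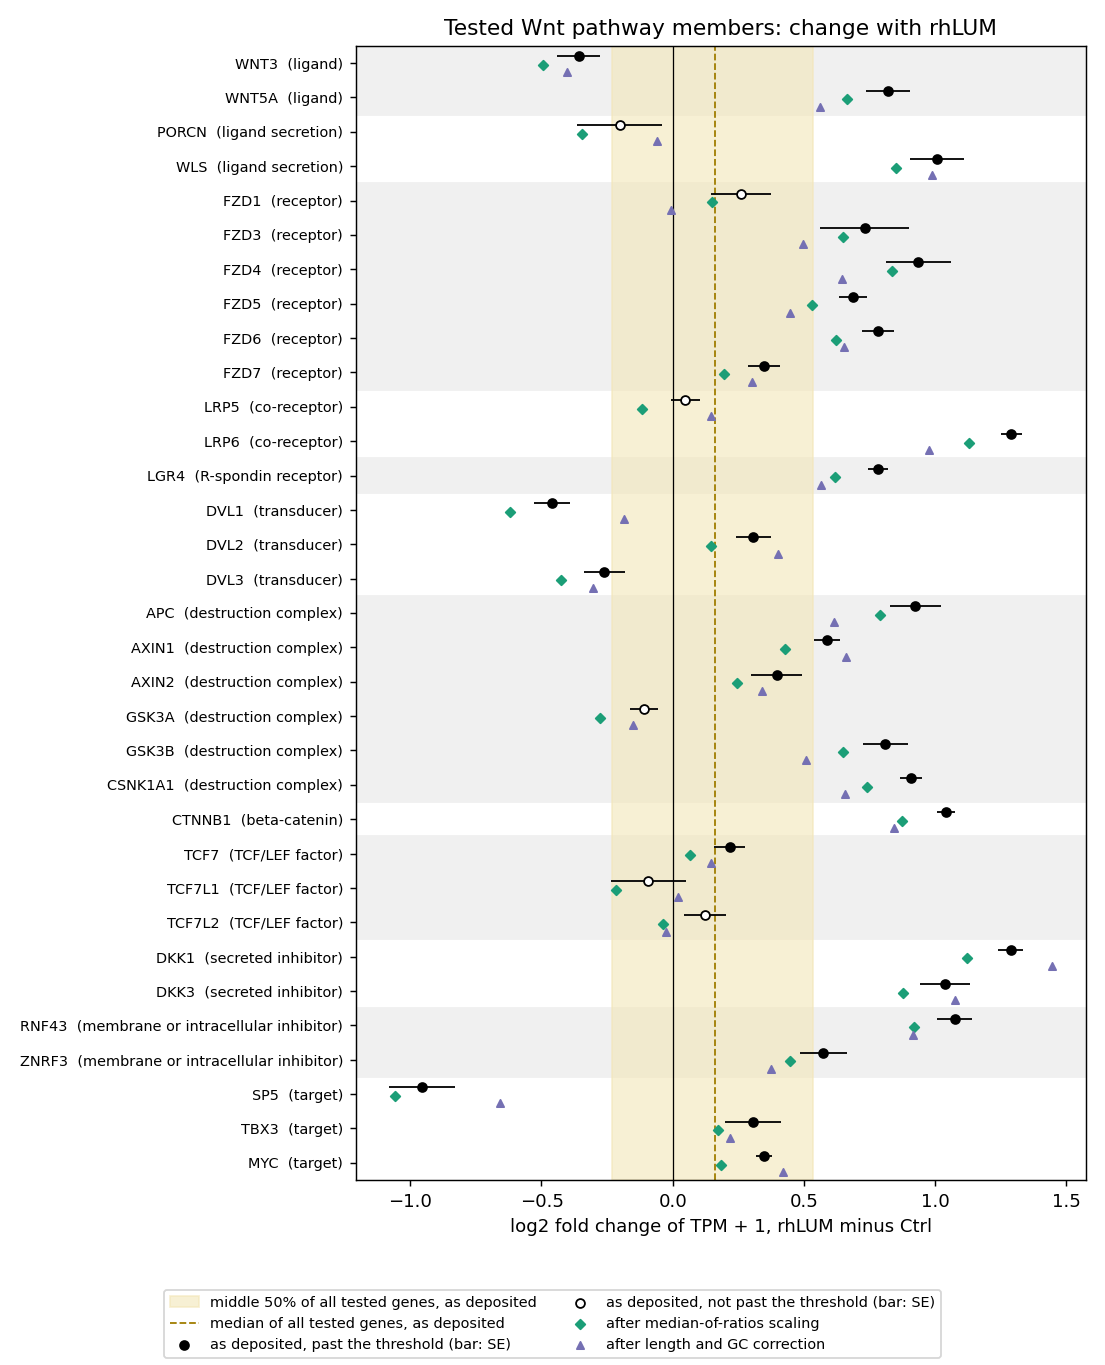
Log2 fold change of TPM + 1 (rhLUM minus Ctrl) of each tested member, ordered by role. Circles with SE bars are values as deposited (filled where past the threshold), diamonds follow median-of-ratios scaling and triangles the length and GC correction. The band is the middle 50% of all tested genes and the dashed line their median, 0.16. LRP6, DKK1, RNF43, CTNNB1, DKK3 and WLS lie beyond 1.0 as deposited, TCF/LEF factors lie within the band, and SP5 stands alone near -1.

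Secreted inhibitors gave some of the largest rises. DKK1, which blocks LRP5 and LRP6 and is itself a Wnt target, had 120, 119 and 122 TPM in rhLUM, against 52.4, 46.6 and 47.5 TPM in Ctrl. Its change was 1.29 (SE 0.05, limma adjusted p = 8.86e-07), above that of 97.4% of tested genes. Exons of PRKG1-AS1, on the other strand, overlap DKK1 but that gene averaged only 0.50 TPM in rhLUM and 0.023 TPM in Ctrl. DKK3, a divergent member of the same family whose action on the pathway depends on context, had 39.6, 36.4 and 30.4 TPM in rhLUM, against 17.6, 16.2 and 16.2 TPM in Ctrl. It changed by 1.04 (SE 0.10, limma adjusted p = 6.2e-05), and its rhLUM libraries spread more widely than those of DKK1. SFRP1 and WIF1, which bind ligands, were at or under 0.03 TPM in every library. NOTUM, which removes the lipid of the ligand, was at 0.19 to 0.23 TPM in rhLUM and 0.14 to 0.16 TPM in Ctrl.

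RNF43 and ZNRF3 are membrane ubiquitin ligases that remove Frizzled receptors and are induced by the pathway, and both rose. RNF43 (chr17:58352500-58417595, minus strand) had 20.8, 20.6 and 20.1 TPM in rhLUM, against 9.83, 8.37 and 9.42 TPM in Ctrl, a change of 1.07 (SE 0.07, limma adjusted p = 8.31e-06). Its exons overlap those of SUPT4H1 on the same strand, which averaged 100.04 TPM in rhLUM and 71.3 TPM in Ctrl. ZNRF3 had 4.04, 4.58 and 4.11 TPM in rhLUM, against 2.54, 2.51 and 2.50 TPM in Ctrl, a change of 0.57 (SE 0.09, limma adjusted p = 0.00101). The groups of both were apart and both were called under every alternative tried.

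Among the inhibitors that act inside the cell or at its membrane, NKD1, a Dishevelled-binding protein and Wnt target, had 0.25, 0.21 and 0.24 TPM in rhLUM, against 0.18, 0.06 and 0.06 TPM in Ctrl. NKD2 was at 0.37 to 1.12 TPM in rhLUM and 0.46 to 1.01 TPM in Ctrl, and APCDD1 was listed at 0 in all libraries. None of these was tested, and without a filter NKD1 did not pass (limma adjusted p = 0.0791).

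The target SP5, a zinc finger factor that Wnt signals induce directly in many cell types, moved against the other targets. It had 0.99, 0.75 and 0.91 TPM in rhLUM, against 2.73, 2.53 and 2.69 TPM in Ctrl, a ratio of means of 0.333. Its groups were well apart, with a change of -0.96 (SE 0.13, limma adjusted p = 3.94e-04), below that of 94.4% of tested genes. SP5 passed the filter only through Ctrl, where it is high. Its change was -1.06 after median-of-ratios scaling and -0.66 after the length and GC correction. MYC, a growth regulator with many inputs besides Wnt, had 99.8, 98.5 and 98.8 TPM in rhLUM, against 80.1, 77.1 and 75.5 TPM in Ctrl. Its groups were apart, with a change of 0.35 (SE 0.03, limma adjusted p = 5.47e-05), 0.18 after median-of-ratios scaling. TBX3, a T-box factor linked to beta-catenin in liver tumours, averaged 4.26 ± 0.22 TPM in rhLUM and 3.27 ± 0.45 TPM in Ctrl (SD, n = 3 each). It changed by 0.30 (limma adjusted p = 0.0382), a call that was lost in each scaling alternative (limma adjusted p = 0.115 to 0.362) and without any 1 library other than Ctrl B (0.0633 to 0.109). It was called in 5 of the 16 settings.

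Taking the 14 members that are known direct targets or feedback genes of the pathway (AXIN2, LGR5, NKD1, NKD2, NOTUM, RNF43, ZNRF3, APCDD1, SP5, TBX3, TCF7, LEF1, DKK1 and MYC), 8 were tested. Of these, 7 rose (87.5%, beside 44.5% of all genes) and 1 fell (12.5%, beside 22.3%), with a median of 0.37 beside 0.16. Median-of-ratios scaling gave 4 higher genes, 1 lower gene and a median of 0.21. A filter of at least 1 TPM in all 6 libraries removed SP5, which was under 1 TPM in every rhLUM library. The 7 then tested were higher, but that filter had taken out the 1 gene that fell because of its fall. The 6 members not tested as deposited were each at or under 1.12 TPM in every library.

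SP5 and DKK1 were, among the member targets and feedback genes, those with the largest changes in opposite directions, and the sequences before their starts are shown because both hold matches to the core that TCF/LEF factors bind. The genes span chr2:170715351-170718078 (SP5) and chr10:52314296-52318042 (DKK1) in GENCODE 29. The window is the 250 bases before the RefSeq start (GRCh38.p14), on chr2:170715087-170715336 for SP5 and chr10:52314031-52314280 for DKK1, both on the plus strand, and capitals mark the matches.
SP5: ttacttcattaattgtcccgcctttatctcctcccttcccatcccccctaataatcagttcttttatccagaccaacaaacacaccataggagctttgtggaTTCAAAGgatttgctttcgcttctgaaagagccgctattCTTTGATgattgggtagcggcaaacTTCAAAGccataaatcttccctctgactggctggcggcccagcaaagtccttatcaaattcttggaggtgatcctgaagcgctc
DKK1: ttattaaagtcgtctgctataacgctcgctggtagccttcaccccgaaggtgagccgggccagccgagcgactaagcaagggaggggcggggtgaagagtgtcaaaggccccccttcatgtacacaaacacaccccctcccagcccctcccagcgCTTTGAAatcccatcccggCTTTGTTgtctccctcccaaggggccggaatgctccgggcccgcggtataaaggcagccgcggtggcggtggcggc

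The motifs searched were CTTTGAA as well as CTTTGAT and the forms with T in the place before the last, namely CTTTGTA as well as CTTTGTT, on both strands, and overlapping matches would each have been counted. SP5 held 3 matches, beginning 148, 109 and 84 bases before the start, and DKK1 held 2, beginning 95 and 76 bases before it. At least 1 match was found in 11.96% of the 35116 promoter windows of the RefSeq table, at least 2 in 1.21% and at least 3 in 0.122%. Of the members, 30 matched the table, with 39 starts, and TCF7 and TCF7L2 also held a match, 1 each. At least 1 match was thus found in 4 of the 39 starts (10.3%, beside 11.96% of all windows). Of the other target and feedback members, RNF43, LEF1, NKD2 and APCDD1 held none. AXIN2, ZNRF3, MYC, TBX3, NKD1, NOTUM and LGR5 had no start in the RefSeq table. A match describes the letters of the window and not binding.

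**Figure D4:**
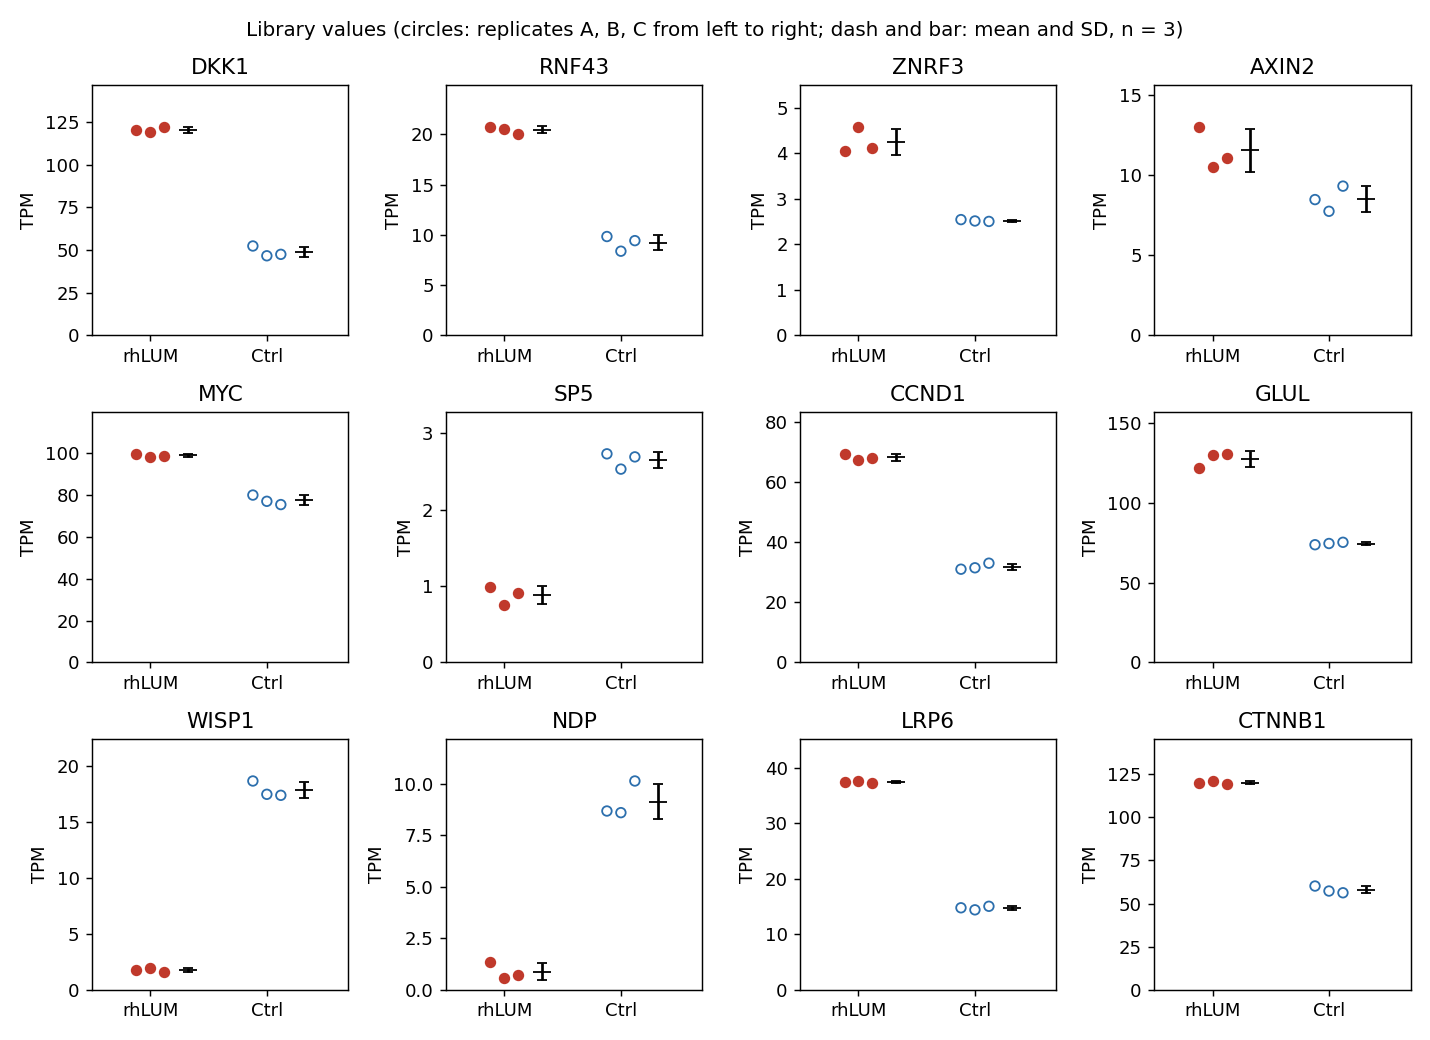
TPM in each library (circles) with the mean and SD (n = 3) for 12 genes, rhLUM left of Ctrl, each axis from 0. DKK1, RNF43, ZNRF3, AXIN2, MYC, CCND1, GLUL, LRP6 and CTNNB1 are higher in every rhLUM library, and SP5, WISP1 and NDP are lower in every one.

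A further 111 genes of the pathway that are no members were listed by role, of which 63 were tested, 38 rose (60.3%, beside 44.5% of all genes tested) and 8 fell (12.7%, beside 22.3%), with a median change of 0.38 beside 0.16. Of 15 other WNT ligands, 14 were under the filter. The 1 tested, WNT4, averaged 1.17 ± 0.21 TPM in rhLUM and 2.97 ± 0.03 TPM in Ctrl (SD, n = 3 each), a change of -0.88 (limma adjusted p = 6.05e-04). Of 12 other secreted modulators 1 was tested and fell. It was NDP, which encodes norrin, a ligand of FZD4 unrelated in sequence to Wnts, at 1.34, 0.57 and 0.70 TPM in rhLUM, against 8.69, 8.61 and 10.2 TPM in Ctrl. The change was -2.46 (SE 0.17, limma adjusted p = 1.29e-05). NDP passed the filter only through Ctrl, where it is high, and had no value with at least 1 TPM in all 6 libraries. FZD4, described above, rose.

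Other membrane components had 4 of 5 tested genes higher (80%, beside 44.5% of all genes) and none lower (beside 22.3%). ROR1, a receptor of WNT5A, changed by 0.62 and RYK, another Wnt receptor, by 0.32 (called in 14 of the 16 settings). CD44, which acts beside LRP6, averaged 441 ± 13.6 TPM in rhLUM and 315 ± 12.2 TPM in Ctrl (SD, n = 3 each). The genes of planar polarity, a branch without beta-catenin, were called about as often as all genes tested, with 4 of 8 higher (50%, beside 44.5%) and 2 lower (25%, beside 22.3%). VANGL1, a core polarity protein, averaged 9.77 ± 0.22 TPM in rhLUM and 3.54 ± 0.09 TPM in Ctrl, a change of 1.25 (limma adjusted p = 3.81e-06). INVS changed by 0.59 and CELSR2 by 0.63, while the cadherins CELSR1 and CELSR3 changed by -0.43 and -0.48. CELSR2 passed the filter only through rhLUM, where it is high, with a mean of 0.88 TPM in Ctrl.

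Other genes of beta-catenin turnover were mostly higher, 12 of 18 (66.7%, beside 44.5% of all genes) with 1 lower (5.6%, beside 22.3%). The median was 0.69, beside 0.16 (11 higher and 4 lower after median-of-ratios scaling). The higher genes included SKP1 and CUL1, subunits of the ubiquitin ligase that marks beta-catenin, which changed by 0.76 and 0.58, and the phosphatase subunit PPP2CA, by 0.91. USP34, which removes ubiquitin from axin, changed by -0.49 (limma adjusted p = 2.22e-05). Of 16 other nuclear factors 11 rose (68.75%, beside 44.5% of all genes) and 1 fell (6.25%, beside 22.3%). Their median was 0.63, beside 0.16 (10 higher and 3 lower after median-of-ratios scaling). BCL9, which binds beta-catenin as a co-activator, averaged 21.5 ± 0.40 TPM in rhLUM and 7.44 ± 0.06 TPM in Ctrl (SD, n = 3 each), a change of 1.41 (limma adjusted p = 5.85e-07). The acetyltransferase CREBBP changed by 1.13 and the co-repressor CTBP2 by 0.92. The co-repressor TLE1 changed by -0.12 (limma adjusted p = 0.0344), called in 9 of the 16 settings.

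Other target genes were called higher about as often as all genes tested, 4 of 9 (44.4%, beside 44.5%), with 1 lower (11.1%, beside 22.3%). Their median of 0.09, beside 0.16, turned to -0.05 after median-of-ratios scaling. That scaling gave 2 higher and 3 lower, beside 5077 and 4569 of 14802 genes. CCND1, cyclin D1, averaged 68.1 ± 1.1 TPM in rhLUM and 31.8 ± 1.0 TPM in Ctrl, and BIRC5, survivin, 84.9 ± 1.3 TPM in rhLUM and 53.0 ± 0.29 TPM in Ctrl (SD, n = 3 each). WISP1, a matricellular protein named for its induction by Wnt1, had 1.72, 1.90 and 1.56 TPM in rhLUM, against 18.7, 17.5 and 17.4 TPM in Ctrl. Its change of -2.79 (SE 0.08, limma adjusted p = 2.74e-07) and that of NDP were the largest falls among the pathway genes tested. The ratio of means was 0.0968 for WISP1 and 0.0951 for NDP, so which of them fell more depends on the pseudocount. Of 9 tested liver targets of beta-catenin, 4 of which are members, 7 rose (77.8%, beside 44.5% of all genes) and 1 fell (11.1%, beside 22.3%). After median-of-ratios scaling 4 rose and 1 fell. GLUL, glutamine synthetase, a marker of beta-catenin activity in liver, averaged 128 ± 4.8 TPM in rhLUM and 74.7 ± 0.77 TPM in Ctrl, a change of 0.77 (limma adjusted p = 2.02e-06). RGN, regucalcin, changed by -0.35. CYP2E1, a further target, was under the filter, at 0.08 to 0.25 TPM in rhLUM and 0.43 to 1.15 TPM in Ctrl, and was called lower when no filter was applied (-0.54, limma adjusted p = 0.0498). CYP1A1, CYP1A2 and LECT2 were listed at 0 in all libraries.

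**Figure D5:**
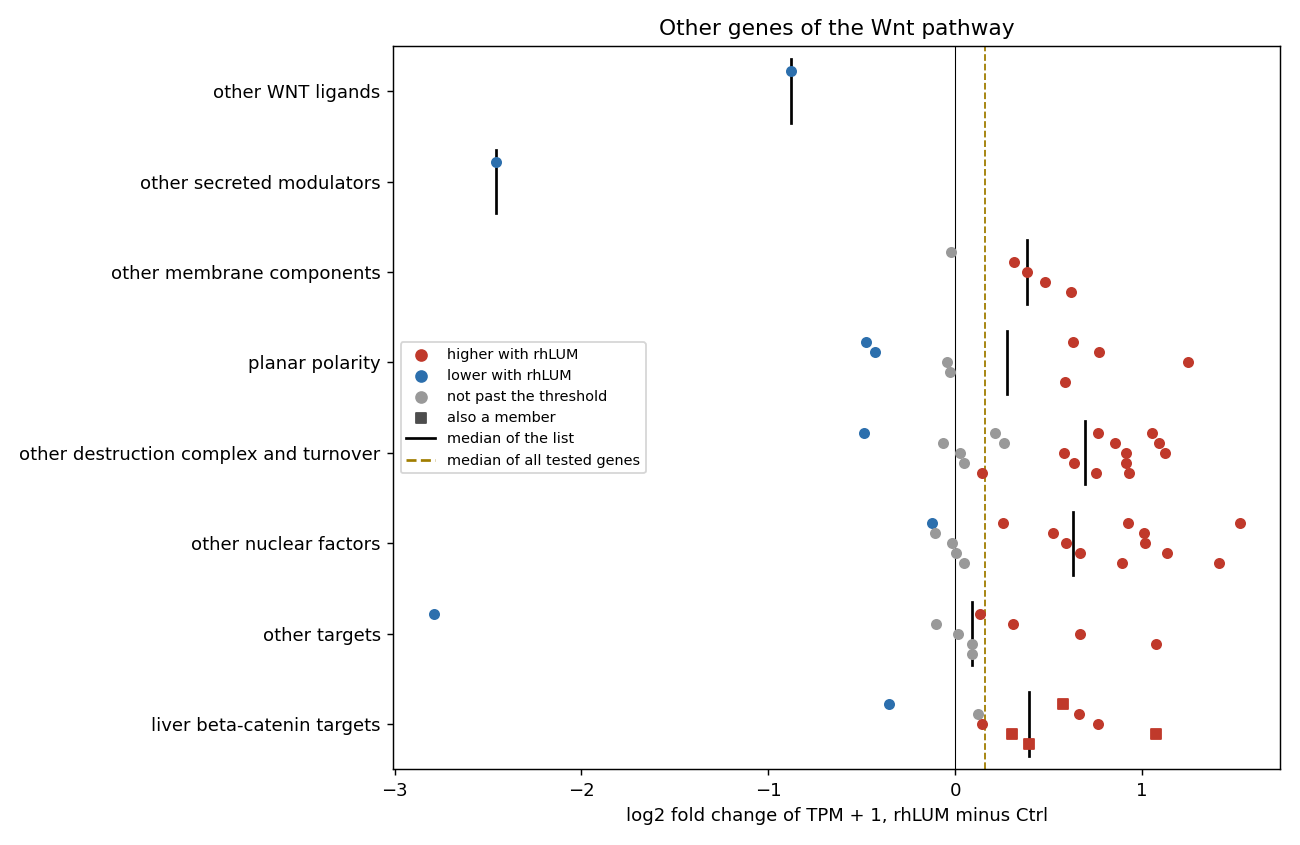
Log2 fold change of TPM + 1 (rhLUM minus Ctrl) of the tested genes of 8 lists of Wnt pathway genes, with each list's median as a bar and that of all tested genes, 0.16, as a dashed line. Points of beta-catenin turnover and nuclear factors lie mostly to the right, and WISP1 and NDP are the points beyond -2.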

How the data were processed

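The groups and replicate letters A to C came from the labels. Per the labels' protocols, poly-A RNA of the xenografts was selected, prepared with a KAPA HyperPrep kit and read as pairs of 151 bases. STAR 2.7.8, RSEM 1.2.31 and GRCh38 were used, per the submitters' processing notes. For the annotation release, strand setting and removal of mouse host reads, the setting is not given in the sources used here. Each library has 1 table of TPM values from the authors, per the file headers, and TPM keeps no depth.

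A total of 2210 rows sharing a symbol with another row were left out. Genes averaging 1 TPM or more were fitted by limma 3.58.1 in R 4.3.3 on log2(TPM + 1), with a variance trend and no term but group (4 residual degrees of freedom, two-sided, Benjamini-Hochberg over 14781 genes). The fit was tested on simulated data with independent noise and effects in a small part of the genes. In these data 66.8% of genes were called, so that test does not bear on the choice of scaling. Alternatives were 3 scalings, a pseudocount of 0.1, 2 filters, no trend, a loess correction for the length and GC content of each gene's longest GENCODE 29 transcript (found for 86.8% of tested genes and all 33 tested members), a replicate block and leaving out each library. No batch is named in the labels. Exon overlaps came from GENCODE 29 and promoters from RefSeq, GRCh38.p14.

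The members and lists were chosen with earlier results of these data known. Values in every library are given for members past the threshold with a change of at least 0.5 and for CTNNB1, AXIN2, LGR5, SP5, NKD1, DKK1 and MYC. LRP5, WISP1 and NDP in full, and single marker and liver genes, were given after their values were seen. From each other list, up to 3 genes with the smallest p and any called against the list's majority were named.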

Additional observations from a re-analysis of the deposited data

How the results depend on the processing

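Counts of members called stayed within 1.5 times the 23 higher and 4 lower under every alternative tried, at 18 to 24 higher and 3 to 6 lower. The members' median change of 0.57 was 0.43 after median-of-ratios scaling, 0.36 after upper quartile scaling, 0.48 on rescaling without mitochondrial genes, 0.42 after the length and GC correction, 0.26 with no filter on low values (45 members, many near 0) and 0.49 with at least 1 TPM in all 6 libraries (30 members), and it ranged between 0.51 and 0.58 when 1 library was left out. Over all genes, lower calls numbered 3299 as deposited and 5195 after upper quartile scaling, which turned the all-gene median to -0.054. Members that changed sign had not passed as deposited. LRP5 was at -0.12, -0.19 and -0.063 under median-of-ratios, upper quartile and mitochondria-free scaling and between -0.0093 and 0.084 when 1 library was left out. TCF7L2 was at -0.038 and -0.11 under the median-of-ratios and upper quartile scaling. After the length and GC correction TCF7L2 was at -0.027, FZD1 at -0.0060 and TCF7L1 at 0.020. The cause of these moves was not tested. FZD3 had no value without rhLUM C, where its mean was under 1 TPM. Same-lettered libraries did not deviate together (correlations of 0.029, -0.023 and 0.084). Whether the letters pair libraries is not given in the labels, and such correlations cannot settle it. The fit with the replicate block gave 22 members higher and 4 lower, with 6429 and 3219 of all genes. Depth is unknown, so values under about 1 TPM limit what can be said of the 14 low members.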
